A study of Mus musculus with 11 samples.

Results

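The ATF4 stress response and tRNA synthetase genes described here are 39 mouse genes, picked by symbol from the 20888 gene symbols of an expression table of the lumbar spinal cord. The list holds 5 transcription factors, 8 feedback and stress regulators, 10 enzymes of serine, folate, proline, asparagine and cysteine metabolism, 4 amino acid transporters and 12 cytosolic tRNA synthetases. All 39 symbols were in the table, and 36 passed the filter on low values (at least 0.5 RPKM, a read density that corrects for gene length and depth, in at least 3 libraries). The study asked about mitofusin balance in mice that model Charcot-Marie-Tooth neuropathy type 2A, in which mutations of MFN2 damage long axons. Its groups were 5 libraries from MFN2-R94Q:MFN1 mice, 3 from MFN2-R94Q mice and 3 from nontransgenic (nTg) mice. The mice were on the C57BL/6 strain and 10 months old, and each library was taken as 1 animal because the design text counts mice. MFN2 and MFN1 are the mitofusins, GTPases of the outer mitochondrial membrane that fuse mitochondria, and MFN2-R94Q carries an amino acid change seen in patients. The sources used here do not give the promoters of the transgenes, the cells they act in, their species or the sex of the mice.

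ATF4 is the transcription factor at the centre of the integrated stress response. When stress kinases phosphorylate the initiation factor eIF2, general translation falls while the ATF4 message is translated more, so the protein can rise with no change in its own RNA. ATF4 then switches on genes for amino acid synthesis and import, for charging tRNAs and for its own feedback control. Mitochondrial dysfunction is a known trigger of this programme in muscle and in brain, and several cytosolic tRNA synthetases are themselves genes of inherited axonal neuropathy.

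ATF4 binds DNA with C/EBP partners at a composite element, and the letters of its core were searched in the promoters of the genes. The motif was TGATGNAA, read on both strands (TTNCATCA on the other strand), in RefSeq windows on build GRCm38.p6 from 250 bases before to 50 bases after the gene start. Windows were at hand for 31 of the 39 genes, and 12 of those 31 held a match (38.7%). Among all 27025 genes with such a window, 1219 did (4.51%). The 12 were Chac1, Trib3, Asns, Pycr1, Nupr1, Slc7a11, Vldlr and the synthetase genes Aars, Gars, Iars, Tars and Yars, so 5 of the 7 synthetase windows held it. Slc7a11 and Aars each held 2 matches that do not overlap. The matches below are from tested stress, transport, asparagine and synthetase genes, shown because elements of this kind are where ATF4 is known to act on several of them. The match of Vldlr, also tested and listed with the regulators, is not shown. Capitals mark the motif, and each run is written 5′ to 3′ in the direction of the motif.
Nupr1 (chr7:126625563-126625590, plus strand): aagccctgtcTGATGCAAtctggccctt
Slc7a11, upstream match (chr3:50443662-50443689, minus strand): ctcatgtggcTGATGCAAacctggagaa
Slc7a11, downstream match (chr3:50443643-50443670, plus strand): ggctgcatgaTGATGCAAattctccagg
Chac1 (chr2:119351039-119351066, minus strand): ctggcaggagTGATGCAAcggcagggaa
Asns (chr6:7693215-7693242, minus strand): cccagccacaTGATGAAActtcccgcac
Aars (chr8:111033841-111033868, minus strand): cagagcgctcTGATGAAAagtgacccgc
Gars (chr6:55037961-55037988, minus strand): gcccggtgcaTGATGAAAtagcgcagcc
Iars (chr13:49682127-49682154, minus strand): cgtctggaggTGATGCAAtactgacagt
Tars (chr15:11399656-11399683, plus strand): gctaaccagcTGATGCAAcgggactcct
Yars (chr4:129189896-129189923, plus strand): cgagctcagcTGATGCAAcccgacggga
Of the runs shown, most share the spelling TGATGCAA, while those of Asns, Gars and Aars read TGATGAAA. Counted along the gene from its RefSeq start, the match began 110 bases before the start of Nupr1 and 66 and 47 bases before that of Slc7a11. The Aars match shown began 10 bases after the start. The other Aars match, not shown, reads TGATGCAA and began 112 bases before the start. The RefSeq starts of Nupr1 and Aars lie inside the wider GENCODE spans of these genes. A match describes letters and is not evidence of binding.

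Recovered depth was 36.4 to 71.8 M reads in MFN2-R94Q:MFN1 libraries, 30.6 to 52.3 M reads in MFN2-R94Q and 34.6 to 53.8 M reads in nTg. Summed neuron markers (6 genes) lay at 1408 to 1461, 1370 to 1442 and 1442 to 1483 RPKM in MFN2-R94Q:MFN1, MFN2-R94Q and nTg cords. Such markers fit nervous tissue but do not check that it was lumbar cord. Skeletal muscle markers (5 genes) summed to at most 0.814 RPKM and sensory ganglion markers (5 genes) to at most 0.776 RPKM in any library. Replicate 3 of MFN2-R94Q:MFN1 had 12.5 RPKM of Schwann cell markers (4 genes), against 0.972 to 1.99 RPKM elsewhere. Replicate 2 of MFN2-R94Q stood apart, with the highest value of all 11 libraries for 22.7% of tested genes and the lowest for 25.8%. Its summed level of 12 glucocorticoid response genes was 1829 RPKM, beside 846.2 and 1093 RPKM in the other MFN2-R94Q cords, 697.4 to 850.6 RPKM in MFN2-R94Q:MFN1 and 619.3 to 715.6 RPKM in nTg. Mouse Mfn1 lay at 24.2 to 25.6, 25.8 to 26.6 and 24.2 to 25.5 RPKM, and Mfn2 at 43.4 to 47.0, 44.9 to 47.7 and 44.8 to 47.2 RPKM, in MFN2-R94Q:MFN1, MFN2-R94Q and nTg cords. Neither passed in any comparison (limma, smallest adjusted p = 0.132), and since the species of the transgenes is not given, these values do not check the genotype labels.

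Most of the genes were plainly expressed. Averaged over the libraries, 21 of the 39 reached 10 RPKM, 9 of them reached 40 RPKM and 3 stayed under 1 RPKM. Those 3 were Trib3, a pseudokinase that restrains ATF4 signalling, Pycr1, a proline synthesis enzyme, and Gdf15, a secreted stress cytokine. Trib3 lay at 0.163 to 0.284, 0.239 to 0.349 and 0.225 to 0.347 RPKM in MFN2-R94Q:MFN1, MFN2-R94Q and nTg cords, and Pycr1 at 0.265 to 0.414, 0.358 to 0.393 and 0.337 to 0.381 RPKM. Gdf15 lay at 0.0504 to 0.102 RPKM in MFN2-R94Q:MFN1 cords and at 0.0171 to 0.0798 RPKM in nTg cords, and in MFN2-R94Q cords its highest value was 0.0880 RPKM with 1 library listed at 0. All 3 genes had overlapping groups and were not tested.

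Set against nTg cords, MFN2-R94Q cords differed in a few genes of the set, and the median change of the set lay close to 0. Of the 36 tested genes, 5 rose (Nupr1, Slc7a1, Sesn2, Mthfd1l and Psat1), 1 fell (Slc7a11) and 30 did not pass (limma on log2(RPKM + 0.5), Benjamini-Hochberg adjusted p under 0.05). That is 16.7% of the set, near the 17.9% called among all 14347 tested genes, of which 7.5% rose and 10.4% fell. The share of calls in both directions together therefore does not set these genes apart from the rest. By direction, 5 of the 6 calls of the set were rises, while over all genes falls were more frequent. The median log2 fold change of the set was 0.02, beside -0.00 over all tested genes, and the median size of the change was 0.07, beside 0.10. At an unadjusted p under 0.05, 8 of the 36 genes were higher and 2 lower, beside 2284 higher and 2650 lower among all 14347 tested genes. The counts of roles, lists and markers in this comparison are to be read beside these values over all genes. How many of all tested genes had groups that did not overlap was not counted in any comparison. A gap between groups therefore only describes the values of a gene. In bulk cord RNA, fewer cells of a type and less RNA per cell cannot be told apart. The 3 comparisons reuse the same MFN2-R94Q and nTg libraries, so their values are given side by side.

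**Figure D1:**
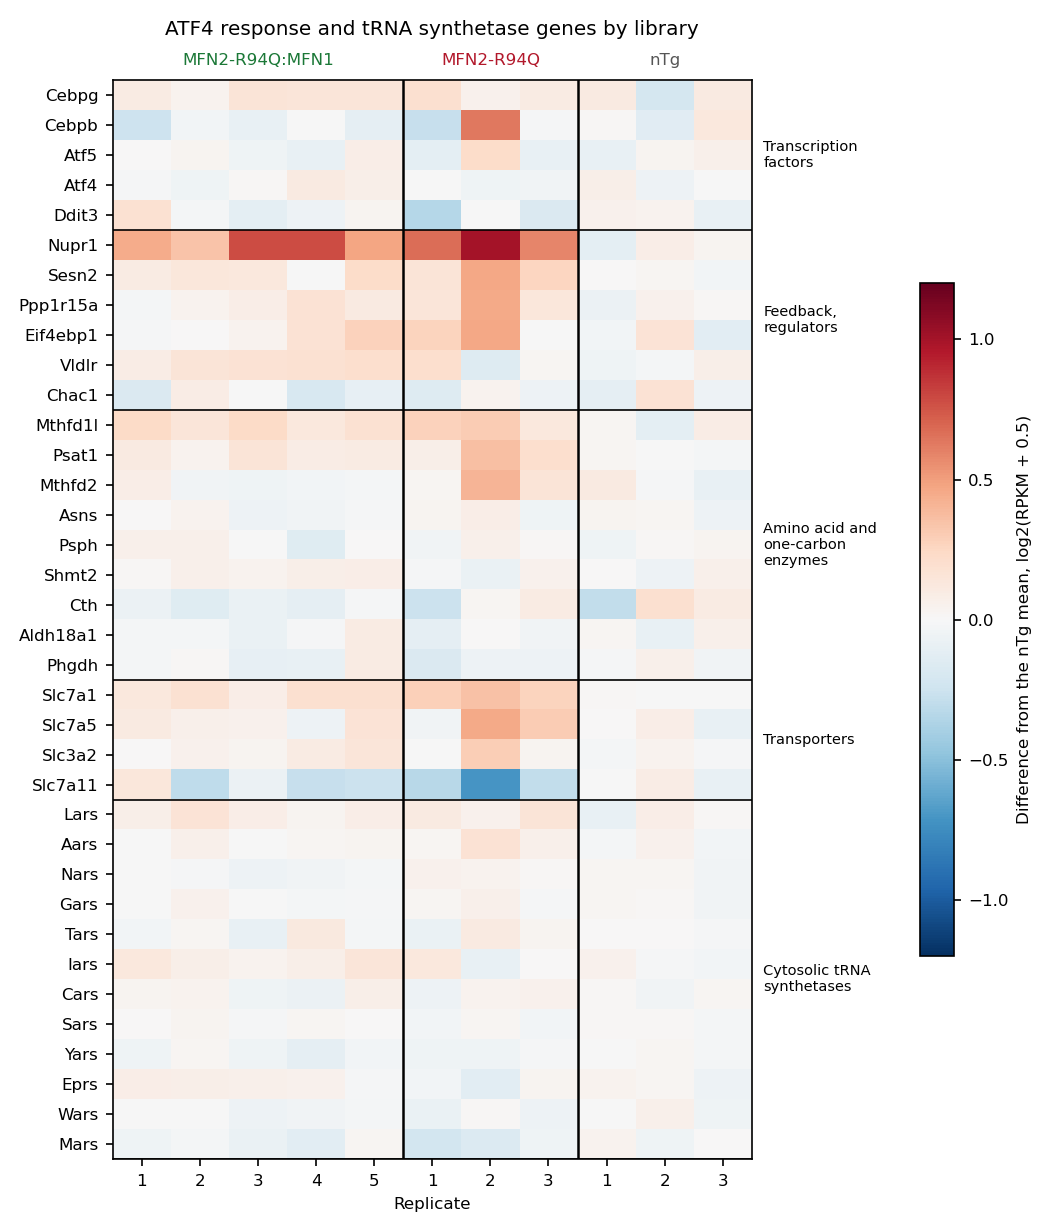
Each row is 1 of the 36 tested genes and each column 1 library, with MFN2-R94Q:MFN1 (5 libraries), MFN2-R94Q (3) and nTg (3) from left to right; colour gives the difference from the nTg mean on the log2(RPKM + 0.5) scale. The synthetase rows at the bottom are pale throughout, and the deepest colours stand in the rows of Nupr1, Cebpb and Slc7a11, most of all in replicate 2 of MFN2-R94Q.

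None of the 5 transcription factors that head the response passed in MFN2-R94Q against nTg (limma, 0 higher and 0 lower also at an unadjusted p under 0.05). Atf4 (chr15:80255184-80257541, plus strand, GRCm38) had 50.2, 48.9, 51.0, 54.7 and 53.2 RPKM in MFN2-R94Q:MFN1 cords, 50.4, 48.8 and 49.1 RPKM in MFN2-R94Q cords, and 53.1, 48.5 and 50.5 RPKM in nTg cords. All 3 groups overlapped, and the MFN2-R94Q over nTg fold of 0.976 had a 95% interval of 0.912 to 1.04 (limma adjusted p = 0.612). Ddit3, which encodes CHOP, the factor tied to cell death under prolonged stress (chr10:127290774-127296288, plus strand), had 20.5, 17.7, 16.5, 17.2 and 18.4 RPKM in MFN2-R94Q:MFN1 cords, 14.0, 17.9 and 15.9 RPKM in MFN2-R94Q cords, and 18.6, 18.5 and 16.9 RPKM in nTg cords. Its lowest values were those of MFN2-R94Q replicates 1 and 3, but replicate 2 lay among the nTg values, and the fold of 0.888 had an interval of 0.782 to 1.01 (adjusted p = 0.170). Exons of Ddit3 and of the synthetase gene Mars overlap on opposite strands, and whether counting used the strand is not given, so both values are uncertain to that extent. Atf5, the related factor of the mitochondrial stress response (chr7:44812256-44816658, minus strand), had 10.1, 10.3, 9.66, 9.42 and 10.6 RPKM in MFN2-R94Q:MFN1 cords, 9.22, 11.8 and 9.42 RPKM in MFN2-R94Q cords, and 9.43, 10.3 and 10.5 RPKM in nTg cords. These groups overlapped too, with replicate 2 of MFN2-R94Q the highest of all, and the fold was 1.003 (interval 0.891 to 1.13, adjusted p = 0.980). Of the dimer partners, Cebpg averaged 7.93 ± 0.42 RPKM in MFN2-R94Q cords and 7.32 ± 0.95 RPKM in nTg cords (SD, n = 3 each). Cebpb was at 3.02 RPKM in replicate 2 of MFN2-R94Q and between 1.38 and 1.98 RPKM in the other 10 libraries. The intervals of the 5 folds ran from 0.782 to 1.39, the widest being that of Cebpb.

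The feedback and stress regulators held the largest change of the set by size. Nupr1, a small stress-inducible nuclear protein (chr7:126623249-126630861, minus strand), had 2.73, 2.51, 3.59, 3.58 and 2.80 RPKM in MFN2-R94Q:MFN1 cords, 3.28, 4.23 and 3.08 RPKM in MFN2-R94Q cords, and 1.68, 2.02 and 1.94 RPKM in nTg cords. Every library of both transgenic groups lay above every nTg library, while the transgenic groups overlapped each other. The MFN2-R94Q over nTg log2 fold change was 0.75 (SE 0.13), a fold of 1.68 with an interval of 1.39 to 2.04 (adjusted p = 0.00364). Sesn2, or sestrin 2, a leucine sensor that restrains mTORC1 (chr4:132492032-132510501, minus strand), had 6.09, 6.28, 6.22, 5.63 and 6.66 RPKM in MFN2-R94Q:MFN1 cords, 6.36, 8.0 and 6.87 RPKM in MFN2-R94Q cords, and 5.68, 5.78 and 5.53 RPKM in nTg cords. The 3 MFN2-R94Q values stood above all nTg values, with replicate 2 the highest, and the fold was 1.23 (log2 0.29, SE 0.074, adjusted p = 0.0179). Ppp1r15a, or GADD34, the phosphatase subunit that reverses eIF2 phosphorylation, also had groups that did not overlap, at 5.48 to 6.97 RPKM in MFN2-R94Q cords and 4.69 to 5.15 RPKM in nTg cords. It did not pass, with a fold of 1.18 and an adjusted p of 0.0533. Chac1, a glutathione-degrading enzyme induced strongly by ATF4 in cultured cells, lay at 4.15 to 4.82 RPKM in MFN2-R94Q cords and 4.31 to 5.32 RPKM in nTg cords (fold 0.961, interval 0.842 to 1.096, adjusted p = 0.676). Eif4ebp1, a repressor of translation initiation, and Vldlr, a lipoprotein receptor, did not pass, with folds of 1.18 and 1.01. In all, 2 of the 6 tested regulators rose and none fell (limma, 3 higher and 0 lower at an unadjusted p under 0.05). Their share called was 33.3%, beside 17.9% of all tested genes.

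**Figure D2:**
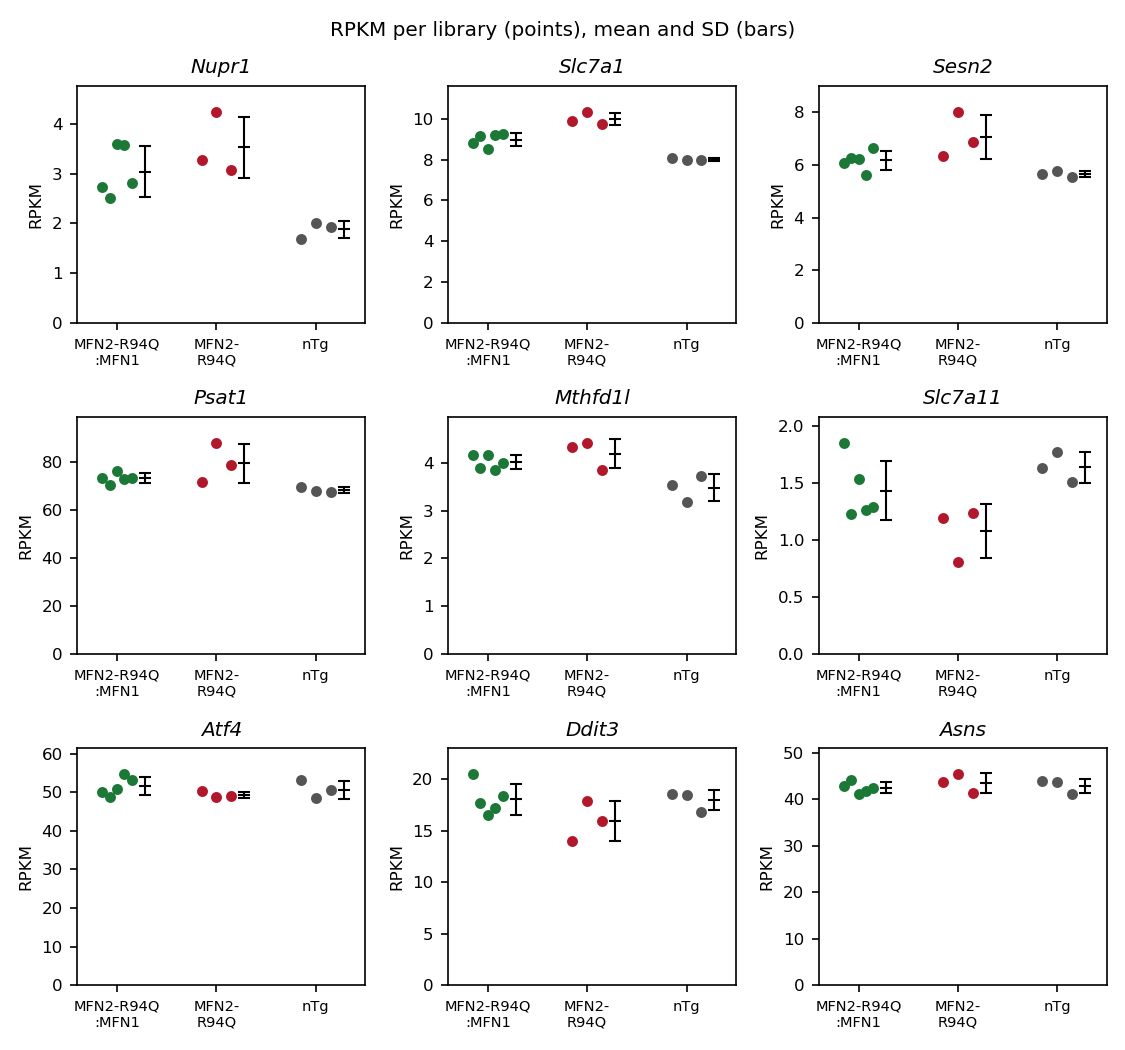
RPKM of 9 genes in each library (points), with the group mean and SD beside them, for MFN2-R94Q:MFN1 (n = 5), MFN2-R94Q (n = 3) and nTg (n = 3); every vertical axis starts at 0. Nupr1 and Slc7a1 separate MFN2-R94Q from nTg cords with a gap, whereas Atf4, Ddit3 and Asns overlap across the groups.

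Among the metabolic enzymes, 2 of 9 tested genes rose and none fell, which is 22.2% beside 17.9% of all tested genes. At an unadjusted p under 0.05, limma gave 3 higher and 0 lower. Psat1, the aminotransferase of serine synthesis (chr19:15904678-15947337, minus strand), had 73.3, 70.2, 76.2, 72.8 and 73.2 RPKM in MFN2-R94Q:MFN1 cords, 71.6, 87.6 and 78.5 RPKM in MFN2-R94Q cords, and 69.6, 68.0 and 67.2 RPKM in nTg cords. The nTg values lay below all others, and MFN2-R94Q replicate 2 was the highest library (fold 1.16, interval 1.06 to 1.26, adjusted p = 0.0250). Mthfd1l, the mitochondrial formate-producing enzyme of the folate cycle (chr10:3973118-4167081, plus strand), had 4.17, 3.88, 4.17, 3.85 and 3.99 RPKM in MFN2-R94Q:MFN1 cords, 4.32, 4.40 and 3.85 RPKM in MFN2-R94Q cords, and 3.54, 3.17 and 3.72 RPKM in nTg cords. All 8 transgenic libraries stood above the nTg libraries, by a narrow margin for the lowest of them (fold 1.18, interval 1.07 to 1.30, adjusted p = 0.0262). The neighbouring steps did not pass. Phgdh, which starts serine synthesis, lay at 42.9 to 46.5 RPKM in MFN2-R94Q cords, under the 47.0 to 50.6 RPKM of nTg cords, and did not pass (fold 0.934, adjusted p = 0.204). Mthfd2, the mitochondrial folate enzyme known to be strongly induced in mouse models of mitochondrial DNA defects, averaged 13.0 ± 1.9 RPKM in MFN2-R94Q cords and 11.2 ± 0.83 RPKM in nTg cords (fold 1.15, adjusted p = 0.109). Asns, asparagine synthetase and a classic ATF4 target, had a fold of 1.01 with an interval of 0.951 to 1.08 (adjusted p = 0.793). Psph, Shmt2, Aldh18a1 and Cth, which finish serine synthesis, feed mitochondrial folate, start proline synthesis and make cysteine, had folds of 1.01, 0.990, 0.967 and 0.970.

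Of the 4 transporters 1 rose and 1 fell (limma, 2 higher and 1 lower at an unadjusted p under 0.05). The share called was 50% of only 4 genes, beside 17.9% of all tested genes. Slc7a1, the cationic amino acid transporter for arginine and lysine (chr5:148327410-148399904, minus strand), had 8.79, 9.14, 8.49, 9.18 and 9.24 RPKM in MFN2-R94Q:MFN1 cords, 9.88, 10.3 and 9.75 RPKM in MFN2-R94Q cords, and 8.07, 7.96 and 7.97 RPKM in nTg cords. The 3 groups did not overlap at any point, with MFN2-R94Q highest, nTg lowest and MFN2-R94Q:MFN1 between them. The MFN2-R94Q over nTg log2 fold change was 0.30 (SE 0.043), a fold of 1.23 (adjusted p = 0.00263). Slc7a11, the cystine importer that feeds glutathione synthesis (chr3:49892526-50443614, minus strand), had 1.85, 1.23, 1.54, 1.26 and 1.29 RPKM in MFN2-R94Q:MFN1 cords, 1.19, 0.807 and 1.24 RPKM in MFN2-R94Q cords, and 1.63, 1.77 and 1.51 RPKM in nTg cords. Its MFN2-R94Q values lay below all nTg values, with replicate 2 the lowest library. The MFN2-R94Q:MFN1 values ran from 1.23 RPKM, just under the highest MFN2-R94Q value, to 1.85 RPKM, above all nTg values. The log2 fold change was -0.45 (SE 0.13), a fold of 0.734 with an interval of 0.606 to 0.889 (adjusted p = 0.0307). Slc7a5, the large neutral amino acid transporter, lay at 19.8 to 28.2 RPKM in MFN2-R94Q cords and 19.1 to 21.6 RPKM in nTg cords and did not pass (fold 1.18, adjusted p = 0.105). Its heavy chain partner Slc3a2 did not pass either (fold 1.08, adjusted p = 0.266).

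The cytosolic tRNA synthetases, the enzymes that load amino acids onto tRNAs, varied little between libraries. Their mean levels ran from 10.7 RPKM for Lars to 109 RPKM for Nars, and their coefficients of variation over all 11 libraries from 1.61% for Sars to 5.71% for Mars, beside a median of 6.26% over the tested genes of the set. None of the 12 passed in MFN2-R94Q against nTg (limma, 0 higher and 1 lower at an unadjusted p under 0.05). The 95% intervals of their folds, each taken for 1 gene alone with no allowance for the number of genes, all lay within 0.837 and 1.16. Mars, the methionine enzyme, had 15.5, 15.8, 15.1, 14.7 and 16.4 RPKM in MFN2-R94Q:MFN1 cords, 13.7, 14.3 and 15.5 RPKM in MFN2-R94Q cords, and 16.6, 15.5 and 16.2 RPKM in nTg cords. Its MFN2-R94Q and nTg ranges met without crossing, and the fold of 0.904 did not pass (adjusted p = 0.0647). Aars, which has the motif in its promoter, had a fold of 1.06 (adjusted p = 0.148), and Gars, whose human counterpart is a gene of axonal neuropathy, a fold of 1.02 (interval within the bounds above, adjusted p = 0.680). Of the 12 genes with a promoter match, Nupr1 rose, Slc7a11 fell, Trib3 and Pycr1 were below the filter and the other 8 did not pass.

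**Figure D3:**
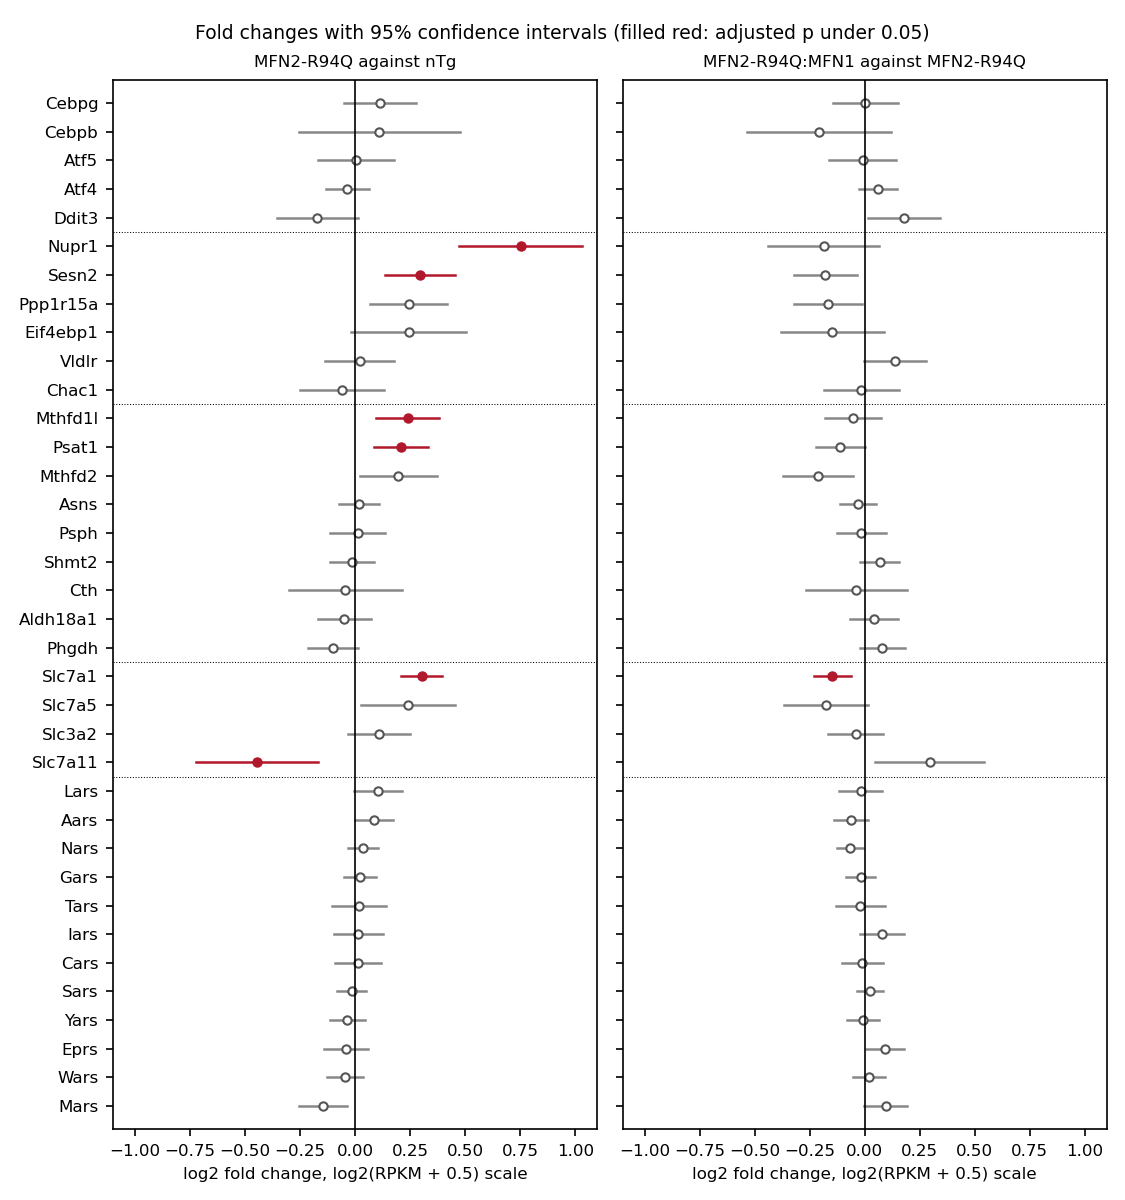
Log2 fold changes of the 36 tested genes with 95% confidence intervals, MFN2-R94Q over nTg on the left and MFN2-R94Q:MFN1 over MFN2-R94Q on the right; filled red points passed an adjusted p of 0.05 and dotted lines part the roles. On the left 6 points are filled, from Nupr1 at 0.75 to Slc7a11 at -0.45, and on the right the only filled point is Slc7a1 at -0.15; the 12 synthetases at the bottom sit close to 0 in both.

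The calls did not all rest on the same libraries. Without replicate 2 of MFN2-R94Q, Nupr1 (fold 1.55, adjusted p = 0.00850) and Slc7a1 (fold 1.21, adjusted p = 0.00357) still rose, and 0 genes of the set fell. The folds of the others were then 1.15 for Sesn2 (adjusted p = 0.0510), 1.098 for Psat1 (0.0613), 1.15 for Mthfd1l (0.0797) and 0.803 for Slc7a11 (0.104). Leaving out nTg replicate 2 or 3 also ended the call of Psat1 (adjusted p = 0.0739 and 0.0721), and leaving out nTg replicate 3 that of Sesn2 (0.0553). Mthfd1l no longer passed when MFN2-R94Q replicate 1 (0.0582), nTg replicate 1 (0.0539) or nTg replicate 2 (0.104) was left out. Slc7a11 was lost without nTg replicate 1, 2 or 3 (0.0720, 0.103 and 0.0503). In the other direction, Slc7a5, Mthfd2 and Ppp1r15a passed as higher without MFN2-R94Q replicate 1, Eif4ebp1 and Ppp1r15a as higher and Mars as lower without replicate 3.

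The median regulator and the median transporter stood higher in replicate 2 of MFN2-R94Q than in the other MFN2-R94Q libraries, although the regulator Vldlr (7.18 RPKM) and the transporter Slc7a11 (0.807 RPKM) were at their lowest of all 11 libraries in it. It had the highest value of all 11 libraries for 15 of the 36 tested genes and the lowest for 5, where the shares over all tested genes were 22.7% and 25.8%. Among the 3 MFN2-R94Q libraries it was the highest for 22 of the 36 and for 38.5% of all tested genes. The median regulator in it stood 0.46 above the nTg mean on the log2 scale, against 0.18 and 0.08 in replicates 1 and 3. The corresponding transporter medians were 0.32, -0.02 and 0.15, and the synthetase medians stayed between -0.03 and 0.04 in every library. The summed oligodendrocyte markers (6 genes) were also lowest in this library at 3379 RPKM, with 3379 to 3686 RPKM in MFN2-R94Q cords and 3812 to 4135 RPKM in nTg cords, and 3 of the 6 fell in MFN2-R94Q. Motor neuron markers (5 genes) summed to 45.8 to 50.4 RPKM in MFN2-R94Q cords, lowest in replicate 2, and to 52.3 to 54.3 RPKM in nTg cords, and 3 of the 5 fell. Meningeal fibroblast markers (5 genes) summed to 460.4 to 825.2 RPKM in MFN2-R94Q cords, highest in replicate 2, and to 296.6 to 344.6 RPKM in nTg cords, and 1 of the 5 rose. Their log2 fold changes had a median of 0.05 and ran from -0.18 to 0.89, so the sum does not stand for all 5. Astrocyte markers (6 genes) summed to 355.9 to 404.7 RPKM in MFN2-R94Q cords, lowest in replicate 2, and to 402.6 to 414.9 RPKM in nTg cords, and 1 of the 6 fell. Endothelial markers (5 genes) summed to 62.7 to 63.9 RPKM in MFN2-R94Q cords and to 64.8 to 71.1 RPKM in nTg cords, and 1 of the 5 rose and 2 fell. The glucocorticoid response genes, highest in the same library as given above, had 5 of 12 members higher in MFN2-R94Q than in nTg. Among all tested genes, 7.5% rose and 10.4% fell in this comparison. The part of these lists in the values of the regulators and transporters was not tested.

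**Figure D4:**
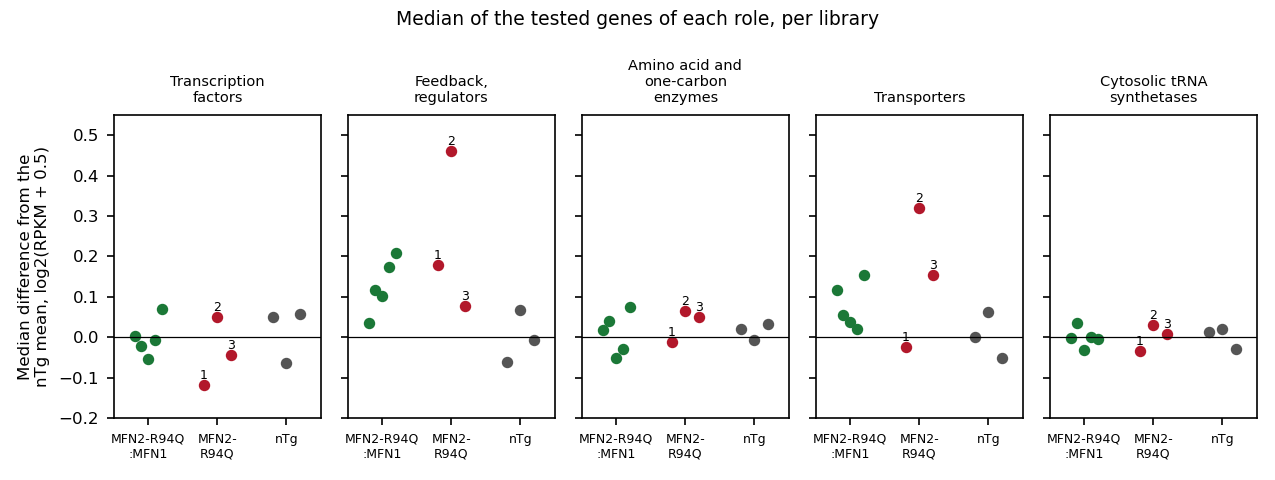
Median difference from the nTg mean, log2(RPKM + 0.5), of the tested genes of each role in each library, for MFN2-R94Q:MFN1, MFN2-R94Q (numbers give the replicate) and nTg. Replicate 2 of MFN2-R94Q stands highest for the regulators (0.46) and transporters (0.32), and all libraries lie within 0.04 of 0 for the synthetases.

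The second comparison asked how cords with MFN1 as well as MFN2-R94Q differ from cords with MFN2-R94Q alone. Of the 36 tested genes 1 fell, Slc7a1, and none rose (2.78%, beside 12.9% of all tested genes, of which 9.55% rose and 3.33% fell). At an unadjusted p under 0.05, limma gave 3 genes higher and 6 lower, beside 2743 higher and 1475 lower among all 14347 tested genes. The median log2 fold change was -0.02, beside 0.01 over all tested genes. Slc7a1 averaged 8.97 ± 0.32 RPKM in MFN2-R94Q:MFN1 cords (SD, n = 5) and 9.98 ± 0.29 RPKM in MFN2-R94Q cords (SD, n = 3). Its log2 fold change was -0.15 (SE 0.039), a fold of 0.903 with an interval of 0.852 to 0.957 (limma adjusted p = 0.0278). The call was lost without MFN2-R94Q replicate 2 (fold 0.918, adjusted p = 0.10) and without MFN2-R94Q:MFN1 replicate 1 or 3 (0.0565 and 0.0521). Without MFN2-R94Q replicate 1, in contrast, Slc7a1, Psat1, Mthfd2, Sesn2 and Slc7a5 were called lower and Vldlr and Iars higher.

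The other genes that had passed against nTg were not called between the transgenic groups. The MFN2-R94Q:MFN1 over MFN2-R94Q fold was 0.878 for Nupr1 (interval 0.739 to 1.04, adjusted p = 0.303) and 0.883 for Sesn2 (adjusted p = 0.0904). It was 0.926 for Psat1 (adjusted p = 0.167), 0.963 for Mthfd1l (0.566) and 1.23 for Slc7a11 (interval 1.03 to 1.46, adjusted p = 0.108). Atf4 had a fold of 1.04 (adjusted p = 0.343), Atf5 of 0.993 (0.941) and Ddit3 of 1.13 (interval 1.01 to 1.27, adjusted p = 0.141). No synthetase passed (limma, 1 higher and 1 lower at an unadjusted p under 0.05), and their intervals all lay within 0.907 and 1.14. Nars, the asparagine enzyme, had groups that did not overlap, at 105.0 to 109.0 RPKM in MFN2-R94Q:MFN1 cords and 110.7 to 113.8 RPKM in MFN2-R94Q cords (fold 0.954, adjusted p = 0.124). Microglial markers (6 genes) summed to 115.5 to 135.1 RPKM in MFN2-R94Q:MFN1 cords and 82.7 to 92.4 RPKM in MFN2-R94Q cords, and oligodendrocyte markers to 3945 to 4268 RPKM and 3379 to 3686 RPKM. Their part in these values was not tested.

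The third comparison set MFN2-R94Q:MFN1 cords against nTg cords. Nupr1 rose, at 3.04 ± 0.51 RPKM in MFN2-R94Q:MFN1 cords (SD, n = 5) and 1.88 ± 0.17 RPKM in nTg cords (SD, n = 3), and none of the other 35 tested genes was called in either direction. That is 2.78% of the set, beside 2.31% of all tested genes, of which 2.09% rose and 0.223% fell. At an unadjusted p under 0.05, limma gave 4 genes higher and 0 lower, beside 1438 higher and 788 lower among all 14347 tested genes. The log2 fold change of Nupr1 was 0.56 (SE 0.12), a fold of 1.48 with an interval of 1.24 to 1.76 (adjusted p = 0.0221). The call was lost without MFN2-R94Q:MFN1 replicate 3 or 4 (adjusted p = 0.0501 and 0.0548) and without nTg replicate 1, 2 or 3 (0.118, 0.0546 and 0.0673), and also with no filter on low values (0.0738). It held under 14 of 20 alternatives. Microglial markers summed to 115.5 to 135.1 RPKM in MFN2-R94Q:MFN1 cords and 84.6 to 91.4 RPKM in nTg cords, and their part in the Nupr1 values was not tested. Slc7a1 had a fold of 1.11 with groups that did not overlap (interval 1.05 to 1.18, adjusted p = 0.0585), and passed without MFN2-R94Q:MFN1 replicate 3 (0.0439) or MFN2-R94Q replicate 2 (0.0315). Psat1, Mthfd1l and Vldlr also had groups that did not overlap but did not pass, with folds of 1.07, 1.14 and 1.12 and limma adjusted p-values of 0.382, 0.149 and 0.266. The share of all tested genes with such a gap was not counted. No synthetase passed here, at the adjusted or the unadjusted threshold (limma, 0 of 12 each way), and their intervals lay within 0.901 and 1.14.

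The wider pathway was read from 5 further lists. The signalling arm upstream of ATF4 (eIF2 kinases, eIF2 and eIF2B subunits and their partners) had 15 tested genes. Of these 3 rose and none fell in MFN2-R94Q against nTg (limma, 4 higher and 0 lower at an unadjusted p under 0.05), which is 20% beside the 17.9% of all genes. Eif2ak2, the kinase PKR that senses double-stranded RNA, averaged 3.72 ± 0.24 RPKM in MFN2-R94Q:MFN1 cords (SD, n = 5), 3.78 ± 0.39 RPKM in MFN2-R94Q cords and 2.98 ± 0.12 RPKM in nTg cords (SD, n = 3 each). It was higher than nTg in both transgenic groups, with folds of 1.21 in MFN2-R94Q:MFN1 (limma adjusted p = 0.0417) and 1.23 in MFN2-R94Q (0.0156). Eif2b3, a subunit of the exchange factor that eIF2 phosphorylation inhibits, had a fold of 1.14 (adjusted p = 0.0188), and Eif2s3x, the gamma subunit of eIF2, of 1.09 (0.0394). Eif2ak3, Eif2ak1 and Eif2ak4, the kinases PERK, HRI and GCN2, were among the 12 that did not pass. The Eif2ak2 call in MFN2-R94Q was lost without nTg replicate 2 (0.0541), and that in MFN2-R94Q:MFN1 when any of 7 of the 11 libraries was left out, namely MFN2-R94Q:MFN1 replicates 2 to 5 and the 3 nTg libraries (0.0695 to 0.165). Eif2b3 was lost without MFN2-R94Q replicate 2, nTg replicate 1 or nTg replicate 2 (0.0530, 0.0517 and 0.0551). Eif2s3x was lost without any of 9 libraries, all but MFN2-R94Q:MFN1 replicate 4 and MFN2-R94Q replicate 3 (0.0527 to 0.116). None of the 15 passed between the transgenic groups (limma, 0 higher and 2 lower at an unadjusted p under 0.05).

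Of 17 tested further genes of the ATF4 response, 1 rose and 1 fell in MFN2-R94Q against nTg (11.8%, beside 17.9% of all genes). Atf3, a stress factor that also marks injured neurons, averaged 1.29 ± 0.15 RPKM in MFN2-R94Q:MFN1 cords (SD, n = 5), 1.104 ± 0.15 RPKM in MFN2-R94Q cords and 0.696 ± 0.13 RPKM in nTg cords (SD, n = 3 each). It rose in both transgenic groups, with folds of 1.5 in MFN2-R94Q:MFN1 (limma adjusted p = 0.00435) and 1.34 in MFN2-R94Q (0.0168). Slc6a9, a glycine transporter that glia use, averaged 89.0 ± 1.9 RPKM in MFN2-R94Q:MFN1 cords, 77.5 ± 6.5 RPKM in MFN2-R94Q cords and 88.9 ± 3.3 RPKM in nTg cords (SD, n = 5, 3 and 3). It was lower in MFN2-R94Q than in nTg (fold 0.871, adjusted p = 0.0202) and higher in MFN2-R94Q:MFN1 than in MFN2-R94Q (fold 1.15, adjusted p = 0.0162). Ddit4, an mTORC1 inhibitor that glucocorticoids also induce, was lower in MFN2-R94Q:MFN1 cords than in MFN2-R94Q cords (fold 0.532, adjusted p = 0.0307), at 25.6 ± 2.8 RPKM and 53.1 ± 27 RPKM. Without MFN2-R94Q replicate 2, 0 genes of this list passed in MFN2-R94Q against nTg or between the transgenic groups (adjusted p = 0.0578 for Atf3, 0.0528 and 0.0510 for Slc6a9 and 0.112 for Ddit4). Atf3 in MFN2-R94Q was also lost without nTg replicate 2 (0.0704), and Slc6a9 against nTg without nTg replicate 2 or 3 (0.0575 and 0.0729). The Ddit4 call also needed MFN2-R94Q replicate 3 and MFN2-R94Q:MFN1 replicates 2 to 5, with adjusted p-values of 0.0502 to 0.0687 when each of these was left out. The rise of Atf3 in MFN2-R94Q:MFN1 held with any 1 library left out.

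The mitochondrial tRNA synthetases, which serve translation inside mitochondria, were tested as 17 genes. In MFN2-R94Q against nTg 4 fell and none rose (23.5%, beside 17.9% of all genes, limma, 1 higher and 6 lower at an unadjusted p under 0.05). The 4 were Aars2 (fold 0.849, adjusted p = 0.00791), Cars2 (0.808, 0.00858), Tars2 (0.856, 0.0121) and Yars2 (0.869, 0.0398). Aars2 and Cars2 held with any 1 library left out, Tars2 was lost without nTg replicate 2 (0.0506), and Yars2 was lost without MFN2-R94Q replicate 2 or 3, MFN2-R94Q:MFN1 replicate 5, or nTg replicate 1 or 3 (0.0532 to 0.132). In MFN2-R94Q:MFN1 against MFN2-R94Q, 2 of the 17 passed (11.8%, beside 12.9% of all genes). Aars2 was higher (fold 1.13, limma adjusted p = 0.0197) and Iars2 lower (0.893, 0.0396). Neither passed without MFN2-R94Q replicate 2 (0.0768 and 0.158), and leaving out any of 6 other libraries, among them nTg replicate 2 and 4 of the 5 MFN2-R94Q:MFN1 libraries, also ended the Iars2 call (0.0519 to 0.0779). The 8 other cytosolic synthetases held 1 call over the 3 comparisons, Dars, the aspartate enzyme, at 19.99 ± 0.47 RPKM in MFN2-R94Q:MFN1 cords and 17.6 ± 0.92 RPKM in MFN2-R94Q cords (fold 1.13, adjusted p = 0.0100), and this call held with any 1 library left out. It is 12.5% of the 8, beside 12.9% of all genes called in that comparison.

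Of 15 further genes of serine, glycine and proline metabolism, 2 rose (Shmt1, the cytosolic serine hydroxymethyltransferase, and Glul) and 2 fell (Pycrl and Srr, the serine racemase) in MFN2-R94Q against nTg, 26.7% beside 17.9% of all genes. Pycrl, a proline synthesis enzyme, averaged 9.47 ± 0.27 RPKM in MFN2-R94Q:MFN1 cords, 7.47 ± 0.41 RPKM in MFN2-R94Q cords and 9.72 ± 0.41 RPKM in nTg cords (SD, n = 5, 3 and 3). Its fold was 1.25 in MFN2-R94Q:MFN1 over MFN2-R94Q (limma adjusted p = 0.00131) and 0.779 in MFN2-R94Q over nTg (0.00233). In MFN2-R94Q:MFN1 against MFN2-R94Q, Cbs, which makes cystathionine (fold 0.836, adjusted p = 0.00763), Shmt1 (0.737, 0.0387) and Gnmt, which methylates glycine, were among the lower genes. Glul, the glutamine synthetase of astrocytes, averaged 666 ± 69 RPKM in MFN2-R94Q cords and 567 ± 6.5 RPKM in nTg cords (fold 1.17, adjusted p = 0.0162). Without MFN2-R94Q replicate 2, 3 genes of this list rose and 1 fell against nTg, and 1 rose and 1 fell between the transgenic groups. The calls of Pycrl and Cbs held with any 1 library left out. Against nTg, Shmt1 and Glul were lost without nTg replicate 2 (0.0532 and 0.0503) and Srr without any of 7 libraries, among them all 3 nTg libraries (0.0523 to 0.122). Between the transgenic groups, Shmt1 was lost without any of 7 libraries (0.0511 to 0.142) and Gnmt without any of 9 (0.0551 to 0.196), MFN2-R94Q replicate 2 among them in both cases.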

How the data were processed

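RNA-seq libraries from 11 lumbar spinal cords were compared. The labels give stranded poly(A) libraries and no sex, batch, pairing or replicate number. Replicates are numbered here in the order of the samples within each group. The submitters' processing notes name TopHat, without a version, and Partek 7.17.0918, with mouse build mm10. The sources used here give neither the annotation, nor the strand setting, nor the treatment of reads with several matches, so values of overlapping genes are uncertain (among the genes here Aars, Atf5, Cars, Cebpb, Cebpg, Ddit3, Mars, Ppp1r15a, Psph, Shmt2 and Yars). The authors deposited RPKM values, which depend on depth and gene length, for 20888 symbols. A spreadsheet had turned 25 symbols into dates. Depth was recovered from short RNA genes (under 160 bases, RefSeq GRCm38.p6), whose low values are whole multiples of 1 read within 0.02. Counting error is part of the spread between libraries, and each p-value sets a difference of group means against the spread between these samples.

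A gene was tested if 3 or more libraries reached 0.5 RPKM. The test was limma 3.58.1 (R 4.3.3), with a trended prior variance, on log2(RPKM + 0.5). All 11 libraries entered 1 fit with the group as the only term, the tests were two-sided, and p-values were adjusted by Benjamini-Hochberg over all tested genes. Fold changes on this scale understate the change of low genes, and errors after RPKM values are SDs. The procedure was tested on simulated data. Alternatives were pseudocounts of 0.1 and 1, no filter, a filter of 1 RPKM, quantile normalization, median centring, a fit of the 2 groups compared, library weights, no trend and leaving out each library. Gene coordinates are those of GENCODE M21 on GRCm38, and promoters are RefSeq sequences, whose gene starts can differ from the ends of the GENCODE spans.

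The genes, the lists and the markers were chosen with earlier results of these data known. Values in every library are given for Atf4, Ddit3 and Atf5 and for genes called in the first or second comparison. Other lists give up to 4 genes with the smallest adjusted p, and where a count is 5 or fewer its genes are named whatever the rule. Mars and the kinases PERK, HRI and GCN2 were named after their values were seen, and the motif search over all the genes was added then too. Some values and sequences are not reported here.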

Additional observations from a re-analysis of the deposited data

Results flagged for a closer look

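Among the tested genes of the set, 3 had 1 library of MFN2-R94Q:MFN1 far from the other 4, by the gap to the nearest library as a share of the group's range, which by chance happens in about 1 in 20 groups. Mthfd2, the mitochondrial folate enzyme, was at 11.8 RPKM in replicate 1 and at 10.8 to 10.96 RPKM in the others (gap 0.817 of the range). Gars, the glycine tRNA synthetase, was at 57.1 RPKM in replicate 2 and at 54.2 to 54.9 RPKM in the others (0.754 of the range). Eprs, the glutamate and proline tRNA synthetase, was at 24.1 RPKM in replicate 5 and at 25.3 to 25.7 RPKM in the others (0.715 of the range). The groups of 3 were not examined in this way.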

How the results depend on the processing

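Over the 20 alternatives, 2107 of 2160 values of a tested gene in a comparison stayed on their side of the threshold, 31 calls were lost, 22 were gained and 0 changed direction. Nupr1 and Slc7a1 passed in MFN2-R94Q against nTg under all 20 (adjusted p = 0.00333 to 0.0263 and 0.00186 to 0.0274). Sesn2 passed under 17, Psat1 under 15, Mthfd1l under 14 and Slc7a11 under 13. In MFN2-R94Q against nTg, the fit of those groups alone gave 2 genes higher and 0 lower and 846 calls over all genes, where the full fit gave 5, 1 and 2561. The lower count was 0 with no filter or with library weights and 2 with median centring (Slc7a11 and Mars). In MFN2-R94Q:MFN1 against MFN2-R94Q, the lower count was 2 with quantile normalization (Slc7a1 and Nars) or median centring (Slc7a1 and Mthfd2) and 0 with those groups alone, and no filter gave 1198 calls over all genes, against 1848. In MFN2-R94Q:MFN1 against nTg, the higher count was 2 (Nupr1 and Slc7a1) with those groups alone or with library weights, with 566 and 592 calls over all genes, against 332. Quantile normalization called Aars and Nars higher in MFN2-R94Q than in nTg. The share of higher calls over all genes was 74.1% in MFN2-R94Q:MFN1 against MFN2-R94Q (54.7% with quantile normalization, 59.1% with median centring), 90.4% in MFN2-R94Q:MFN1 against nTg (79.1% with median centring) and 42.0% in MFN2-R94Q against nTg (30.6% with those groups alone). The cause of these moves was not tested. Leaving out 1 library gave 2 to 7 genes higher and 0 to 2 lower in MFN2-R94Q against nTg, 0 to 2 and 0 to 5 in MFN2-R94Q:MFN1 against MFN2-R94Q, and 0 to 2 and 0 in MFN2-R94Q:MFN1 against nTg, with 1213 to 2857, 882 to 2217 and 189 to 589 calls over all genes. No paired analysis was possible because the labels give no replicate numbers or pairing. Low levels limit Trib3, Pycr1 and Gdf15, which were not tested.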
